A study of Mus musculus with 15 samples.

Results

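The non-catalytic subunits of the H3K4 methyltransferase complexes (COMPASS and COMPASS-like complexes) were followed through 9 RNA-seq libraries of mouse B cell lymphoma. Members were the 10 rows whose Ensembl identifier carried the symbol Ash2l, Rbbp5, Wdr5, Dpy30, Paxip1, Pagr1a, Ncoa6, Men1, Cxxc1 or Hcfc1, among 37583 gene rows in each count table. Each symbol matched 1 row, and 10 of 10 passed the filter on low counts. The study compared lymphomas transduced with an empty vector (EV, 4 RNA libraries) with lymphomas given a hairpin vector that targets Kmt2d (sh-Kmt2d, labelled sh-kmt2d, 5 RNA libraries). In both groups cells came directly from mouse tumours, without culture, and B220-positive cells were enriched with CD45R (B220) microbeads. The sources used here do not give the mouse strain, age, tumour model or hairpin sequence. Nothing states which libraries came from separate animals, so p-values measure the spread between these libraries, which may be in part technical. The levels of Xist and Ddx3y given with Hcfc1 differ widely between libraries of a group. Library titles begin with 78 (EV replicate 1), 87 (EV replicates 2 to 4), 103 (sh-Kmt2d replicates 1 to 3) or 110 (sh-Kmt2d replicates 4 and 5), and no such title number spans both groups.

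Methylation of histone H3 on lysine 4 marks promoters and enhancers, and it is written by SET domain enzymes that are weakly active alone. They work on a shared core of Wdr5, Rbbp5, Ash2l and Dpy30. Further subunits set the complexes apart: Paxip1, Pagr1a and Ncoa6 belong to the Kmt2c and Kmt2d complexes of enhancers, Men1 to those of Kmt2a and Kmt2b, Cxxc1 to the SET1 complexes, and Hcfc1 occurs with Kmt2a, Kmt2b and SET1. Paxip1 is also known in B cells for its part in immunoglobulin class switching.

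Counts on genes per library ranged from 5925745 to 29284830, and the 10 members together held 1966 to 23900 of them, with the lowest figure of each range in sh-Kmt2d replicate 5. Values are CPM, counts scaled to a common library size with TMM, a trimmed mean of ratios between libraries. Kmt2d itself, the target of the hairpin, ranged from 94.4 to 498 CPM in EV and from 9.77 to 204 CPM in sh-Kmt2d, so that the groups shared part of their range. A long-minus-short index, the median log2 CPM of 25 genes with very long transcripts minus that of 25 genes with short ones, was 2.94, 2.39, 3.25 and 1.29 in EV replicates 1 to 4. It was 0.45, 0.20, 2.13, -1.65 and -5.21 in sh-Kmt2d replicates 1 to 5. The libraries thus differed along this index, and sh-Kmt2d replicate 5 stood far from the others. This gradient cannot be told apart from the hairpin by design alone. The share of alignments that were not unique rose in nearly the same order as the index fell, also within each group. It was 36.48% and 38.32% in EV replicates 1 and 3, of highest index, and 73.68% in sh-Kmt2d replicate 5. The part of this share in the gradient was not tested. Most of the short genes encode subunits of the respiratory chain, so transcript length and that function cannot be told apart in the index. The 8 B cell markers summed to between 10472 and 11850 CPM in EV and to between 11386 and 15431 CPM in sh-Kmt2d replicates 1 to 4, with 34774 CPM in replicate 5. The 8 T cell markers summed to between 287 and 390 CPM in EV and to between 337 and 1138 CPM in sh-Kmt2d. The 8 macrophage markers summed to between 181 and 686 CPM in EV and to between 155 and 314 CPM in sh-Kmt2d. The 7 neutrophil markers summed to between 6.73 and 212 CPM in EV and to between 2.40 and 50.1 CPM in sh-Kmt2d, 6 of 7 erythroid markers to 9.31 to 245 and 18.2 to 70 CPM, the 6 platelet markers to 5.15 to 6.32 and 1.18 to 2.02 CPM, and the 7 markers of stroma and endothelium to 104 to 238 and 36.6 to 161 CPM. None of the marker genes found in the tables was at 0 in every library, and the part of other cells in the members' values was not tested. In such bulk samples fewer cells of a type and less RNA per cell cannot be told apart.

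The bases before the annotated start of 4 members are shown because these members mark the main patterns described below: Men1 and Pagr1a, whose groups did not overlap, Dpy30, which had the most positive fold change, and Hcfc1, one of the lower members. RefSeq windows on GRCm38.p6 existed for 8 of the 10 members, all except Ash2l and Cxxc1. The sequences run 5′ to 3′ on the strand of the gene and end at the base before the start site, and capitals mark matches to the motifs named below on either strand. Positions are chr19:6334729-6334978 (plus strand, Men1), chr7:127017353-127017602 (minus strand, Pagr1a), chr17:74316434-74316683 (minus strand, Dpy30) and chrX:73966358-73966607 (minus strand, Hcfc1). Dpy30 and Men1 have several annotated starts (4 and 3 windows), and 1 of each is shown.
Men1: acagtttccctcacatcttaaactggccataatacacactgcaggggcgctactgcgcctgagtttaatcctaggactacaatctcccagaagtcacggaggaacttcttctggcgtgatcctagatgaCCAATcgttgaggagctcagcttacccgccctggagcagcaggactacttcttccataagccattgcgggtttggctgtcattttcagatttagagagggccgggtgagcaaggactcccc
Pagr1a: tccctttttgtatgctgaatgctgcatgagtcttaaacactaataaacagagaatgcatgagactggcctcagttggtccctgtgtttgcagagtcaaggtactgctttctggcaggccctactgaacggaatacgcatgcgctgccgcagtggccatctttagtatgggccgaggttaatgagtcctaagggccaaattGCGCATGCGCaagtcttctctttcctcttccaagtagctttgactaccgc
Dpy30: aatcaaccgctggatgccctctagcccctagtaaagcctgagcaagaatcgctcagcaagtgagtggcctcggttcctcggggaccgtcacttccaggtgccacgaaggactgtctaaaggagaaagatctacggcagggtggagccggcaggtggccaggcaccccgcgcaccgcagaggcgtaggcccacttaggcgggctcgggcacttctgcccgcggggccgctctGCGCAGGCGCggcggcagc
Hcfc1: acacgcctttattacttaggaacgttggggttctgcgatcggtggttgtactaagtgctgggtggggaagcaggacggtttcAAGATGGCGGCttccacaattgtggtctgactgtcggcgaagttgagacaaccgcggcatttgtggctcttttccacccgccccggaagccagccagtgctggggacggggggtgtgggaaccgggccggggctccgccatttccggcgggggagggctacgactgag
Windows of 250 bases before to 50 bases after a start were searched on both strands for 5 motifs. The NRF1 motif was found in a window of 4 members, as GCGCACGCGC in Wdr5, GCGCAGGCGC in Dpy30 and GCGCATGCGC in Paxip1 and Pagr1a, against 5.19% of the 27025 genes with a window. Genes may have several windows, and of all 32851 windows 4.6% held it. Shares of genes include many that did not pass the filter on low counts, unlike the members, and enrichment was not tested. The YY1 motif, the capitals of the Hcfc1 sequence, was found in Hcfc1 alone among the 8, against 0.755% of genes (0.633% of windows). CCAAT was found in Dpy30, Ncoa6 and Men1, against 41.1% of genes (37.4% of windows). CCGGAAGT (ETS factors, 4.31% of genes and 3.89% of windows) and CACGTG (E-box, 8.09% of genes and 7.15% of windows) were found in none of the 8. A match describes the sequence and does not show that a factor binds. The members with the NRF1 motif lay on both sides of the comparison, with Dpy30 and Pagr1a higher and Paxip1 and Wdr5 lower in mean CPM in sh-Kmt2d. Without sh-Kmt2d replicate 5 the mean of Wdr5 was 68.1 CPM in sh-Kmt2d, against 66.6 CPM in EV.

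The members did not shift as 1 block between the groups. Log2 fold changes of sh-Kmt2d over EV ran from -1.14 for Ncoa6 to 1.73 for Dpy30, with 3 positive and 7 negative values, where 48.1% of all genes were positive and 51.9% negative. The median was -0.14, beside -0.04 over all 13349 genes tested. The edgeR quasi-likelihood test called 0 of the 10 higher and 0 lower at an adjusted p under 0.05, as it did over all genes (0.0% in each direction). At an unadjusted p under 0.05 it counted Dpy30 and Pagr1a, 2 of 10, as higher, where 17.3% of all genes were, and 0 as lower, where 11.1% were. These counts moved with the libraries used, as did the shares of all genes. Without EV replicate 1 there were 0 higher and 0 lower (4.39% and 5.64% of all genes), and without EV replicate 3 again 0 and 0 (4.14% and 5.81%). Without EV replicate 2 there were 1 higher (Pagr1a) and 0 lower (6.58% and 7.67%), and without EV replicate 4 also 1 higher (Dpy30) and 0 lower (14.5% and 12.7%). Without sh-Kmt2d replicate 3 Dpy30 and Pagr1a were higher and Ncoa6 and Hcfc1 lower (22.5% and 17.1%). Without sh-Kmt2d replicate 5 Dpy30, Pagr1a and Men1 were higher and Rbbp5 and Ncoa6 lower (18.6% and 18.1%). Scaling by total counts left 1 higher (Dpy30) and 0 lower (12.4% and 9.55%). DESeq2 called Men1 higher after adjustment, 1 of 10, where it called 1.83% of genes, and 0 of 10 lower, where it called 3.22%. Before adjustment DESeq2 counted 3 members higher (Dpy30, Pagr1a and Men1), where 21.0% of genes were, and 1 lower (Ncoa6), where 16.1% were. limma with quality weights called the same 3 higher, where it called 29.8% of all genes, and Rbbp5, Ncoa6 and Hcfc1 lower, where it called 30.3%. Without title 110 edgeR counted those 3 as higher before adjustment (11.4% of genes) and Ncoa6 as lower (14.3%). A limma fit with a random effect of the title number counted 0 members in either direction before adjustment, where 2.1% of genes were higher and 7.03% lower. Groups did not overlap, with sh-Kmt2d on the higher side, for Men1 and Pagr1a, 2 of 10, against 5.72% of all genes, and on the lower side for 0 of 10, against 5.12%.

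**Figure D1:**
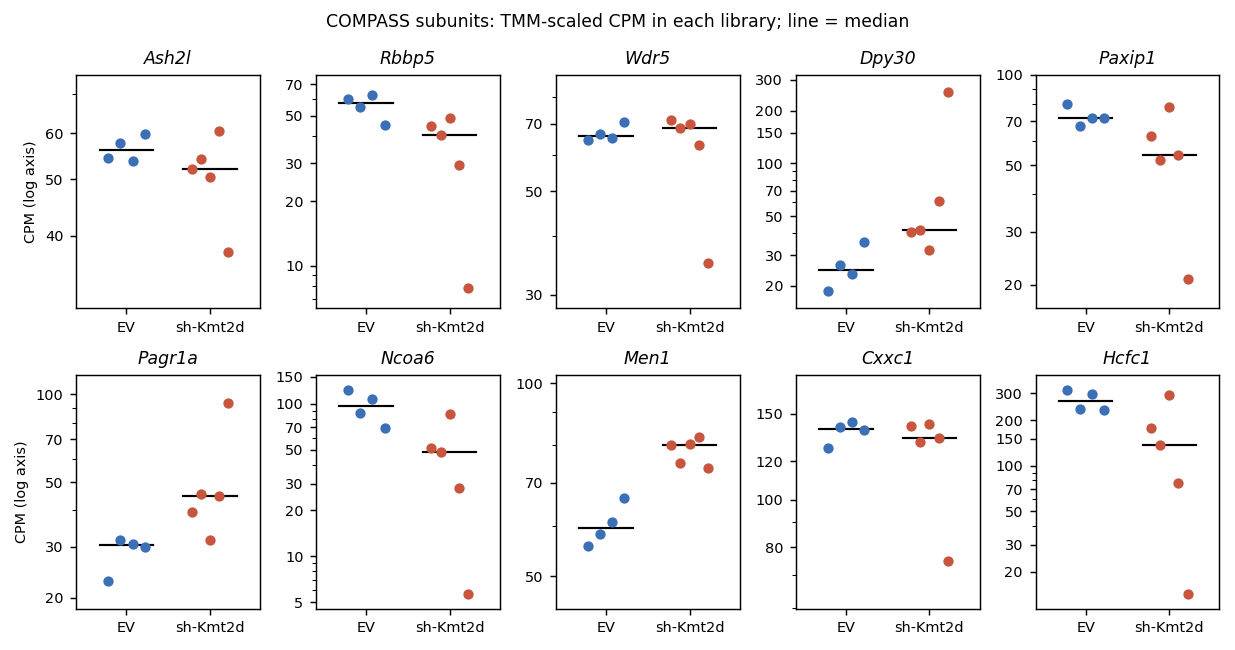
TMM-scaled CPM (log axis) of each of the 10 subunits in 4 EV libraries (blue) and 5 sh-Kmt2d libraries (red), with replicates from left to right and the group median as a line. Men1 is separated between the groups at 55.7 to 66.3 against 73.8 to 82.4 CPM, and sh-Kmt2d replicate 5 is the lowest or highest red point in each of the 10 panels.

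In the shared core, Ash2l and Wdr5 kept nearly the same level in 8 of the 9 libraries. Ash2l, which with Rbbp5 stimulates the catalytic subunit, had 54.3, 57.8, 53.7 and 59.7 CPM in EV replicates 1 to 4. In sh-Kmt2d replicates 1 to 5 it had 52.1, 54.3, 50.4, 60.5 and 37.5 CPM. The groups overlapped, and sh-Kmt2d replicate 5 was the low library. Its mean was 56.4 ± 2.8 CPM in EV (SD, n = 4) against 51.0 ± 8.4 CPM in sh-Kmt2d (SD, n = 5). The difference came to a log2 fold change of -0.14 ± 0.20 (SE), with a 95% interval of -0.59 to 0.30 (edgeR adjusted p = 0.601).

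Wdr5, the WD40 propeller that holds the catalytic subunit in the complex, had 64.5, 66.4, 65.0 and 70.4 CPM in EV and 71.4, 68.4, 69.8, 62.9 and 35.0 CPM in sh-Kmt2d. Here too only sh-Kmt2d replicate 5 left the common range. Its log2 fold change was -0.11 ± 0.24 (SE, 95% interval -0.65 to 0.43, edgeR adjusted p = 0.745), and without that library it was 0.03 ± 0.11 (SE).

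Rbbp5, the second scaffold of the core, had 59.7, 55.0, 62.2 and 45.0 CPM in EV and 44.6, 40.6, 48.8, 29.5 and 7.88 CPM in sh-Kmt2d. The 2 ranges met only through EV replicate 4, which was under sh-Kmt2d replicate 3. The value of sh-Kmt2d replicate 5 rested on 25 counts, with an exact Poisson interval of 5.10 to 11.6 CPM, which covers counting error only. This gave a log2 fold change of -0.69 ± 0.42 (SE, edgeR adjusted p = 0.269) and -0.30 ± 0.14 (SE, edgeR adjusted p = 0.209) without both libraries of title 110.

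Dpy30, a small dimeric protein that docks on Ash2l, went the other way. It had 18.6, 26.2, 23.3 and 35.6 CPM in EV and 40.7, 41.5, 31.9, 60.8 and 257 CPM in sh-Kmt2d. EV replicate 4, the EV library with the lowest index, was the highest of its group and exceeded sh-Kmt2d replicate 3, and sh-Kmt2d replicate 5 reached more than any other library. Its log2 fold change was 1.73 ± 0.65 (SE, edgeR adjusted p = 0.167). It was 0.75 ± 0.24 (SE, edgeR adjusted p = 0.0969) without sh-Kmt2d replicate 5 and 0.56 ± 0.22 (SE, edgeR adjusted p = 0.178) without title 110, so that much of its size came from 1 library.

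The 3 subunits of the Kmt2c and Kmt2d complexes were split in direction, and none passed the adjusted threshold in edgeR. Paxip1, a BRCT-domain protein, had 80.2, 67.7, 72.0 and 72.0 CPM in EV and 62.7, 52.2, 78, 54.0 and 20.8 CPM in sh-Kmt2d. The library of sh-Kmt2d with the highest index, replicate 3, lay within the EV range, and the other 4 lay under it. For Paxip1 the fitted log2 difference was -0.44 ± 0.33 (SE, edgeR adjusted p = 0.344).

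Pagr1a, the partner that binds Paxip1, had 23.0, 31.5, 30.7 and 29.9 CPM in EV and 39.5, 45.4, 31.6, 44.9 and 93.3 CPM in sh-Kmt2d. The groups did not overlap, by a margin of 31.6 CPM in sh-Kmt2d replicate 3 against 31.5 CPM in EV replicate 2, and with scaling by total counts they did overlap. For Pagr1a it was 0.82 ± 0.32 (SE, edgeR adjusted p = 0.167) and 0.49 ± 0.16 (SE, edgeR adjusted p = 0.0969) without sh-Kmt2d replicate 5. Its copy Pagr1b has 1 row of its own, and reads that fit several places were not counted, so the level of Pagr1a is uncertain.

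Ncoa6, a large coactivator of nuclear receptors, had 124, 86.4, 108 and 69.4 CPM in EV and 51.5, 48.2, 85.5, 27.9 and 5.68 CPM in sh-Kmt2d. The libraries ran in nearly continuous order from EV replicate 1 down to sh-Kmt2d replicate 5, with sh-Kmt2d replicate 3 inside the EV range. The lowest value rested on 18 counts (exact Poisson interval 3.36 to 8.97 CPM). The log2 fold change was -1.14 ± 0.58 (SE, edgeR adjusted p = 0.200), and -0.64 ± 0.26 (SE, edgeR adjusted p = 0.183) without title 110.

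Men1 encodes menin, which tethers Kmt2a and Kmt2b complexes to chromatin and is a tumour suppressor of endocrine glands. It was higher in each sh-Kmt2d library than in any EV library. Its values were 55.7, 58.2, 60.8 and 66.3 CPM in EV and 80.1, 75.2, 80.5, 82.4 and 73.8 CPM in sh-Kmt2d. Its lowest sh-Kmt2d value was that of replicate 5, close to the 75.2 CPM of replicate 2, and the title means were 55.7 (78), 61.8 (87), 78.6 (103) and 78.1 CPM (110). The group means were 60.2 ± 4.5 CPM (SD, n = 4) and 78.4 ± 3.7 CPM (SD, n = 5). Its log2 fold change was 0.38 ± 0.18 (SE, 95% interval -0.03 to 0.79) with edgeR, which did not pass (adjusted p = 0.189). DESeq2 gave 0.40 ± 0.11 (SE) and called the gene (adjusted p = 0.0214). With a random effect of the title number the value was 0.41 ± 0.25 (SE) and was not called (limma adjusted p = 0.404). Scaling by total counts, which moved the median of all genes by -0.16, gave 0.19 ± 0.29 (SE, edgeR adjusted p = 0.675), since sh-Kmt2d replicate 5 then had 39.5 CPM against 60.9 to 73.1 CPM in EV. The other 4 sh-Kmt2d libraries stayed above the EV range on that scale too, at 81.0 to 88.8 CPM.

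Cxxc1, the zinc finger protein that binds unmethylated CpG and brings SET1 to promoters, had 128, 141, 144 and 139 CPM in EV and 142, 131, 143, 134 and 74.7 CPM in sh-Kmt2d. Apart from sh-Kmt2d replicate 5 the 8 libraries covered the same narrow range. The log2 fold change was -0.14 ± 0.25 (SE, 95% interval -0.69 to 0.41, edgeR adjusted p = 0.677) and 0.00 ± 0.12 (SE) without that library.

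Hcfc1, a large chromatin adaptor shared with other complexes, had 318, 235, 298 and 232 CPM in EV and 178, 137, 291, 76.8 and 14.2 CPM in sh-Kmt2d. Again sh-Kmt2d replicate 3 was inside the EV range and the other 4 were under it. The fitted log2 difference was -0.96 ± 0.64 (SE, edgeR adjusted p = 0.295) and -0.41 ± 0.26 (SE, edgeR adjusted p = 0.312) without title 110. Hcfc1 lies on the X chromosome, and Xist, the RNA of the inactive X, was at 75.7 CPM in EV replicate 2, 200.3 CPM in EV replicate 4 and 410.0 CPM in sh-Kmt2d replicate 3, and under 6 CPM in the other libraries. The Y-linked Ddx3y was at 0.213 CPM in EV replicate 4 and 0.253 CPM in sh-Kmt2d replicate 3, and between 10.1 and 187 CPM in the other libraries. EV replicate 2 thus held both RNAs (Ddx3y at 143 CPM), and whether it mixes samples was not tested. The part of these differences in the values of Hcfc1 was not tested.

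**Figure D2:**
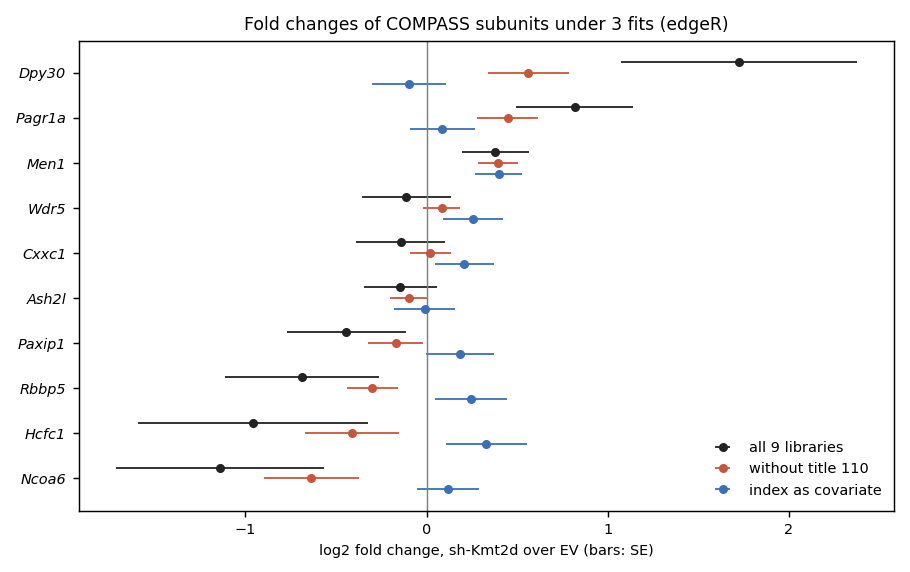
Fitted log2 difference between sh-Kmt2d and EV libraries, with its SE, for the 10 subunits, from all 9 libraries (black), without the libraries of title 110 (red) and with the long-minus-short index added to the model (blue). Men1 keeps values of 0.38, 0.40 and 0.40, while Dpy30 goes from 1.73 to 0.56 and -0.10 and Ncoa6 from -1.14 to -0.64 and 0.12.

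The level of most members ran along the long-minus-short index over the 9 libraries. That of Men1 did so less, as did those of Ash2l, Wdr5 and Cxxc1 outside sh-Kmt2d replicate 5. Within EV, Men1 was highest in replicate 4, the EV library of lowest index, and in sh-Kmt2d it was 80.5 CPM at an index of 2.13 and 73.8 CPM at -5.21. With the index as a covariate the value of Men1 was 0.40 ± 0.13 (SE), at an unadjusted p of 0.0116 and an edgeR adjusted p of 0.591. It was the only one of the 10 under an unadjusted p of 0.05, where 3.47% of all genes were higher and 4.55% lower, and 0 of 10 passed after adjustment, where 0.0225% of genes were higher. In the same fit Dpy30 was at -0.10 ± 0.20 (SE), Pagr1a at 0.09 ± 0.18, Ncoa6 at 0.12 ± 0.17, Rbbp5 at 0.25 ± 0.20, Hcfc1 at 0.33 ± 0.22 and Paxip1 at 0.19 ± 0.19. The 3 flat members were at -0.01 ± 0.17 (Ash2l), 0.26 ± 0.17 (Wdr5) and 0.21 ± 0.16 (Cxxc1). The index takes up part of the difference between the groups, and its genes were chosen with the gradient known, so these values describe the libraries. The median of the 10 was 0.20 in this fit.

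**Figure D3:**
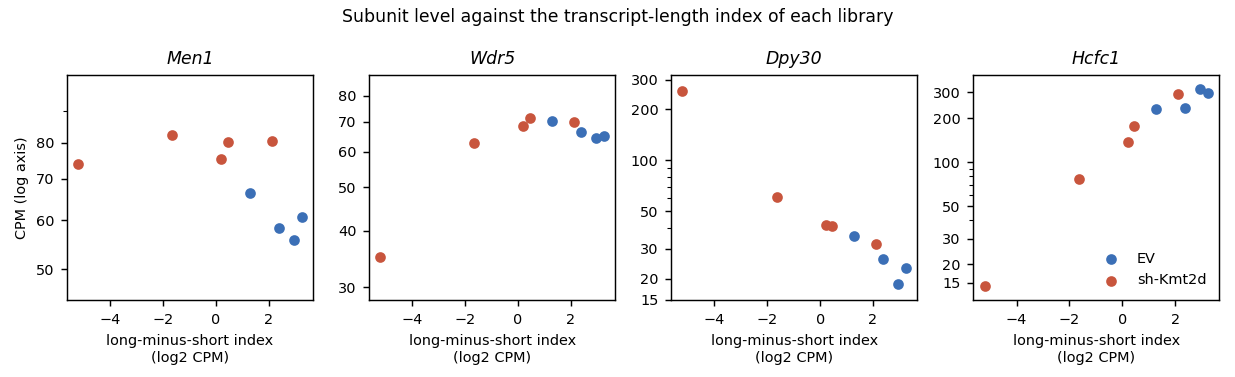
CPM (log axis) of Men1, Wdr5, Dpy30 and Hcfc1 in each library against the long-minus-short index of that library (log2 CPM), EV in blue and sh-Kmt2d in red. Dpy30 runs down from 257 CPM at an index of -5.21, Hcfc1 runs up from 14.2 CPM there, and Men1 is at 80.5 CPM in sh-Kmt2d replicate 3 (index 2.13) against 58.2 CPM in EV replicate 2 (index 2.39).

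Within the libraries, the balance between subunits differed in a way that needs no scaling, since both counts of a ratio come from 1 library. Between genes such a ratio also reflects transcript length, so only its change across libraries is described. Library size cancels in a ratio, but the gradient of the long-minus-short index need not, and its part in these ratios was not tested. Men1 over Wdr5 was 0.864, 0.876, 0.935 and 0.942 in EV replicates 1 to 4. It was 1.12, 1.10, 1.15, 1.31 and 2.11 in sh-Kmt2d replicates 1 to 5. Those groups did not overlap, which held for 5.93% of all tested genes set over Wdr5 in the same direction. Men1 over Cxxc1 was 0.413 to 0.477 for EV and 0.562 to 0.987 in sh-Kmt2d, again without overlap (5.4% of genes over Cxxc1). Men1 over Ash2l was 1.01 to 1.13 in EV and 1.36 to 1.97 in sh-Kmt2d, where 18.0% of genes over Ash2l showed such a separation.

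Against the median log2 CPM of the 10 members in the same library, Men1 was at -0.156 to -0.033 in EV and at 0.485, 0.497, 0.124, 0.442 and 1.024 in sh-Kmt2d replicates 1 to 5. It was the only one of the 10 whose groups did not overlap on this scale, where 3.71% of all genes were higher without overlap and 3.12% lower. The median includes Men1, which was itself a middle member in EV replicates 2 and 4 and so was held near it there. That median was 5.18 in sh-Kmt2d replicate 5, against 5.74 to 6.21 in sh-Kmt2d replicates 1 to 4. Nearly all genes of the shares lie outside the median, so the comparison is not a like one.

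In the core, Ash2l over Wdr5 was 0.826 to 0.870 in EV and 0.730, 0.794, 0.721, 0.961 and 1.07 in sh-Kmt2d replicates 1 to 5. The first 3 of these lay below the EV range and the last 2 above it. Rbbp5 over Wdr5 was 0.640 to 0.957 in EV and 0.593 to 0.699 in sh-Kmt2d replicates 1 to 3, and it was 0.469 and 0.225 in replicates 4 and 5. Dpy30 over Ash2l was 0.342 to 0.597 in EV and 0.633, 0.765 and 0.780 in sh-Kmt2d replicates 3, 2 and 1, with 1.004 in replicate 4 and 6.85 in replicate 5, without overlap (18.0% of genes over Ash2l). In the Kmt2c and Kmt2d module, Ncoa6 over Paxip1 was 0.964 to 1.54 in EV and 0.273 to 1.10 in sh-Kmt2d, and Pagr1a over Ncoa6 was 0.185 to 0.431 in EV and 0.370 to 16.4 in sh-Kmt2d.

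**Figure D4:**
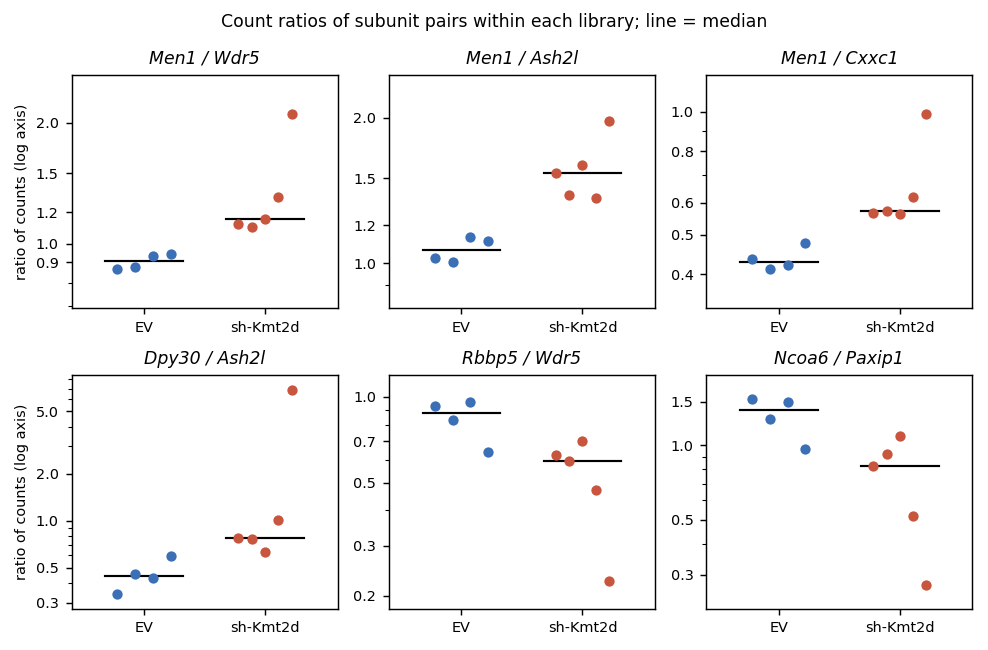
Ratio of the counts of 2 subunits (log axis) in each library for 6 pairs, EV in blue and sh-Kmt2d in red, with replicates from left to right and the group median as a line. The 3 ratios with Men1 as numerator and Dpy30 over Ash2l do not overlap between the groups, and those of Rbbp5 over Wdr5 and Ncoa6 over Paxip1 overlap.

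Other genes of H3K4 methylation were read from lists beside the same fit, and edgeR called 0 genes of any list after adjustment. The 6 catalytic subunits and Kdm6a, the H3K27 demethylase of the Kmt2c and Kmt2d complexes, were 7 negative values of 7, with a median of -1.96, and 6 were lower at an unadjusted p under 0.05, where 51.9% of all genes were negative and 11.1% lower at that threshold. Kmt2d, the target of the hairpin, is in both counts and in the median, and had the lowest value (-2.31 ± 0.84, SE). Setd1a (-1.10 ± 0.34, SE) was called by DESeq2 (adjusted p = 0.0475), and Setd1b had -1.96 ± 0.67 (SE). The non-catalytic members thus had a less negative median than the catalytic list, -0.14 against -1.96, a difference that was not tested, and transcript lengths of the lists were not used here. Among 6 further subunits and partners, 5 were negative, with a median of -0.60. The 2 of smallest p were Bod1l, a SET1 partner (-1.86 ± 0.69, SE), and Ogt, the glycosyltransferase that processes Hcfc1 (-1.31 ± 0.61, SE).

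Ubiquitination of histone H2B and the PAF1 complex act before H3K4 methylation. Of 11 such genes 8 were negative and 3 positive, with a median of -0.42, and the 3 positive ones had an unadjusted p under 0.05, where 17.3% of all genes were higher at that threshold. Ube2a, a ubiquitin-conjugating enzyme that works with the Rnf20 and Rnf40 ligases, had 1.72 ± 0.62 (SE), and Wdr61, a subunit of the PAF1 complex, had 1.06 ± 0.44 (SE). Without title 110 the median of this list was 0.01 and Ube2a was at 0.61. Among 13 readers of methylated H3K4, 10 were negative, with a median of -0.27, among them Bptf (-1.46 ± 0.60, SE), the large subunit of the NURF remodeller, and Chd1 (-1.17 ± 0.555, SE), a remodeller with chromodomains. The 5 demethylases were 5 negative values with a median of -0.71, with Kdm5a at -1.51 ± 0.67 (SE) and Kdm5b at -0.71 ± 0.54 (SE). Among 10 partners that Wdr5 or Hcfc1 have in acetyltransferase complexes, 6 were negative, with a median of -0.41, with Phf20 at -0.93 ± 0.41 (SE) and Mcrs1 at 0.93 ± 0.445 (SE). With the index as a covariate the medians were -0.34 for the catalytic list, 0.06 for the further subunits, 0.26 for the H2B and PAF1 list, 0.14 for the readers, 0.32 for the demethylases and 0.04 for the acetyltransferase partners.

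The pattern over the 9 libraries was shared by many genes for most members and by few for Men1 and Ash2l. The measure was Pearson's correlation of log2 CPM over 9 libraries that share the gradient, given as a description. The distant library sh-Kmt2d replicate 5 weighs heavily in it, most plainly for Wdr5 and Cxxc1. These had 35.0 and 74.7 CPM there, against 62.9 to 71.4 and 128 to 144 CPM in the other libraries. More than 0.9 was reached with 3534 other tested genes for Rbbp5, 3412 for Ncoa6, 3380 for Hcfc1, 3144 for Paxip1, 3034 for Dpy30, 2689 for Pagr1a, 2283 for Cxxc1 and 2081 for Wdr5. It was reached with 106 for Ash2l and 37 for Men1. The closest gene outside the list was Qser1 for Ncoa6 (0.999), Glg1 for Hcfc1 (0.999), Kansl1 for Rbbp5 (0.999), Gm11914 for Wdr5 (0.999) and Rbks for Dpy30 (0.998). It was Phf2 for Paxip1 (0.997), Flywch1 for Cxxc1 (0.993), Rps3a3 for Pagr1a (0.993), Gm1848 for Men1 (0.979) and Hdac11 for Ash2l (0.962). Among the members, Ncoa6 and Hcfc1 were closest to each other (0.993), Dpy30 and Pagr1a likewise (0.968), and so were Wdr5 and Cxxc1 (0.978). The closest member to Men1 was Pagr1a, at 0.537.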

How the data were processed

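RNA of B220-enriched mouse lymphoma cells was analysed from 9 tables of counts per gene, which the authors deposited without normalization. HTSeq 0.6.0, CASAVA 1.8.2 and build mm9 are named per the submitters' processing notes, and no aligner, annotation or strand setting is named there. Per the labels' protocols the library kit was TruSeq RNA v2, and reads of overlapping antisense genes cannot be told apart. The 5 summary rows of each table were left out. Alignments that were not unique made up 36.48% to 73.68% of all alignments, those outside genes 2.69% to 12.93% and ambiguous ones 0.83% to 1.35%. The share not unique was 36.48% to 47.91% in EV and 44.08% to 73.68% in sh-Kmt2d. It was highest in sh-Kmt2d replicate 5, where 22.8% of alignments fell on genes. No pair of libraries of a group agreed within sampling noise (chi-square per gene at least 23.0). The 6 H3K4me1/2 peak lists are in mm9 and were not used here, as no mm9 annotation was at hand to place peaks at genes.

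Symbols were matched for 32860 of 37583 rows (87.4%) from tables of gene names and RefSeq (GRCm38.p6), and promoter sequences are from RefSeq on that build. Groups (EV, 4 libraries; sh-Kmt2d, 5) were compared by the two-sided quasi-likelihood test of edgeR 4.0.16 under R 4.3.3, after filterByExpr and TMM and with robust dispersion. P-values were adjusted over 13349 genes (Benjamini-Hochberg), with a threshold of 0.05. Standard errors are the log2 fold change over the root of F, and intervals of 95% use the t distribution with the degrees of freedom of that test. Log2 CPM used a prior count of 2. DESeq2 1.42.0 and limma 3.58.1 were alternatives, as were other scalings, no filter, a random effect of the title number (correlation 0.439), the index as a covariate, and leaving out libraries. DESeq2 gave an adjusted p for 12844 genes, and its shares are of these. The tests were tried on simulated counts that held no gradient, title effect or outlying library, so that trial does not show how they behave on these libraries. Since transcript lengths were not used, levels were not compared between genes. The text names all members, the 2 genes of smallest p per list and the closest gene of each member. The pairs set in count ratios were chosen after values were seen. Members and lists were chosen with earlier results of these data known.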

Additional observations from a re-analysis of the deposited data

Results flagged for a closer look

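Among 20 groups of values (10 members in 2 groups), 4 had a library far from the others of its group, and each time it was sh-Kmt2d replicate 5, the library with the fewest counts. There Dpy30 had 257 CPM and Pagr1a 93.3 CPM, above the other sh-Kmt2d libraries, while Wdr5 had 35.0 CPM and Cxxc1 74.7 CPM, below them. The gap to the nearest library was 0.872, 0.776, 0.768 and 0.828 of the whole range of the group in that order. Chance flags about 1 group in 20 by this measure, and the 4 flags share 1 library and are not independent. For Men1, Ash2l, Rbbp5, Paxip1, Ncoa6 and Hcfc1 no library stood apart by this measure.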

How the results depend on the processing

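Each log2 fold change was recomputed under 17 alternatives, 9 of them leaving out 1 library. Ash2l, Men1 and Pagr1a kept their direction in the 17, with ranges of -0.31 to -0.01, 0.19 to 0.43 and 0.09 to 0.94. The index as a covariate reversed Rbbp5 (0.25), Wdr5 (0.26), Dpy30 (-0.096), Paxip1 (0.19), Ncoa6 (0.12), Cxxc1 (0.21) and Hcfc1 (0.33), and moved the median of the 10 to 0.20. Without title 110, Wdr5 (0.082) and Cxxc1 (0.021) were reversed too. Wdr5 was also reversed with quality weights (0.098), and it ran from -0.17 to 0.035 when 1 library was left out, positive only without sh-Kmt2d replicate 5. The cause was not tested. DESeq2 called 1 member higher (Men1, 0.40). limma with quality weights, which called 29.8% of all genes higher and 30.3% lower, called 3 higher (Dpy30 0.81, Pagr1a 0.46, Men1 0.41) and 3 lower (Ncoa6 -1.02, Hcfc1 -0.77, Rbbp5 -0.46).

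At an unadjusted p under 0.05, members higher numbered 1 with total counts (12.4% of all genes) and 1 with the index (3.47%). With a random block for the title number they numbered 0 (2.1%), and 0 to 3 when 1 library was left out. The number was 0 without EV replicates 1 (4.39%) or 3 (4.14%), and 1 without EV replicates 2 (6.58%) or 4 (14.5%). Members lower numbered 1 with DESeq2 (16.1% of genes), 4 with quality weights and 1 without title 110 (14.3%). For quality weights the share of all genes before adjustment was not counted, and 30.3% were lower after adjustment. When 1 library was left out, 0 to 2 members were lower, with 2 without sh-Kmt2d replicates 3 (17.1%) or 5 (18.1%). No paired analysis was possible because replicate numbers follow the order of samples and pair nothing across groups. In sh-Kmt2d replicate 5 depth limits Ncoa6 (18 counts), Rbbp5 (25) and Hcfc1 (45).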
